A study of Homo sapiens with 4 samples.

Results

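The pair of control libraries in a 3′ end sequencing series were compared position by position: HEK293 cells with a control siRNA and HEK293 cells without siRNA. They are 2 of the 4 A-seq libraries, chosen by their labels, with 1 library per side. HEK293 is a human embryonic kidney line. The control cells received a double-stranded siRNA labelled scrambled-A with the lipid reagent Lipofectamine RNAiMAX and were harvested 3 days later. The other cells are labelled as having had no siRNA, and the labels do not say whether they received the reagent. Effects of siRNA, reagent, culture and library preparation therefore cannot be told apart, and no difference has a replicate check. The remaining libraries, from cells with siRNAs against the 3′ end processing factors CstF-64 and CF Im 68, were treated like the control cells. They appear only for values side by side. Where 4 values are given in a row they stand in the order no siRNA, control siRNA, CstF-64 siRNA, CF Im 68 siRNA. No annotation of the build of the files (hg19) was used here, so loci are named by the position of their main 3′ end, and the cell line was not checked against marker genes.

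Most eukaryotic mRNAs end where the nascent transcript is cut downstream of a poly(A) signal and a poly(A) tail is added. The cut is rarely made at a single nucleotide, so a poly(A) site is a small cluster of neighbouring 3′ ends. Many genes carry several such sites, and the choice between a proximal and a distal one sets the length of the transcript's end and the regulatory elements it keeps. A control siRNA serves as the reference of a knockdown, because transfection and the entry of double-stranded RNA can themselves change a cell's transcripts.

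In A-seq the primer of the reverse transcription pairs with the start of the poly(A) tail, so that a read should end in 6 A followed by the 3′ adapter. This read end is shown because it marks the measured position, with the tail bases in capitals.
Read 3′ end: AAAAAAtggaattctcgggtgccaagg
By this design the base before the capitals is taken as the last base of the transcript before its tail. Any A of the transcript next to its tail was not separated from the tail bases. Priming in A-rich stretches inside transcripts was not separated.

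The no siRNA library held 15806975 reads and the control siRNA library 13443454 reads. They lay at 689381 and 771977 positions, so the smaller library had more positions. Thinned to 13443454 reads, the no siRNA library had 622898 positions, and the control siRNA library had 1.24 times as many. Single-read positions were 62.7% of all positions without siRNA and 66.3% with control siRNA. The libraries shared 285940 positions, or 41.5% of those without siRNA and 37.0% of those with control siRNA. The shared positions carried 96.7% and 95.2% of the reads.

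Positions within 25 nt were joined to sites, and sites averaging 1 RPM or more over both libraries were kept, RPM being reads scaled to the library total in the usual way. Sites within 10000 nt of a more used site of their strand formed a locus, which can hold more than 1 gene. The cells without siRNA had reads at 32299 of the 32605 sites and in 17717 of the 17999 loci. In 11693 loci only 1 site reached 5% of the locus reads, and these loci held 63.5% of the reads without siRNA. Another 3816 loci had 2 such sites and 2490 loci had 3 or more, up to 8.

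Output of the untreated cells was concentrated in few loci. Of all reads, 11.8% came from 10 loci, 30.4% from 100 loci and 61.4% from 1000 loci. The most used locus, chr12:6647537 (plus strand), had 35869 RPM without siRNA and 36151 RPM with control siRNA. The next, chr16:89629474 (plus), had 23182 and 16540 RPM, and the third, chrX:71492454 (minus), had 14558 and 15110 RPM. Among the 10 loci with the most reads, log2 ratios of control siRNA over no siRNA ran from −0.56 to 0.21, so that no locus of the 10 differed by 2-fold. The lowest ratio belonged to chr8:146015155 (minus), with 5470 RPM without siRNA and 3712 RPM with control siRNA.

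Cleavage without siRNA was sharp at most sites. At the 7750 sites with at least 200 reads in that library, the most used position held a median of 66.7% of the site's reads, with quartiles of 49.6 and 84.3%. A site had a median of 11 positions with reads, with quartiles of 9 and 15. The most used position held at least 90% of the reads at 1274 sites (16.4%) and under 25% at 77 sites.

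Reads outside sites made up 4.55% of reads without siRNA and 6.08% with control siRNA. The ratio of control siRNA over no siRNA was 1.11 within 100 nt of a site of the same strand. From there to 1 kb it was 1.21 upstream and 1.12 downstream, and between 1 and 10 kb it was 1.35 upstream and 1.17 downstream. Beyond 10 kb from any site it was 1.42, with 2.77% of reads without siRNA and 3.93% with control siRNA. These far reads were thinly spread, over 312035 positions without siRNA and 387050 with control siRNA. Mitochondrial reads made up 1.17% and 1.53% of the libraries. The part of this scatter in the differences below was not tested.

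Locus totals, which follow the abundance of polyadenylated transcripts, were compared in 14987 loci with at least 50 reads over both libraries. Ratios are of RPM plus a pseudocount of 1, without a test. In bulk cells, fewer cells that express a transcript and less RNA per cell cannot be told apart. The median log2 ratio was 0.09, with a median absolute value of 0.36. With control siRNA 822 loci (5.48%) were at least 2-fold higher and 351 loci (2.34%) at least 2-fold lower. With TMM scaling, which moved the median to −0.01, 650 were higher and 470 lower.

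The extreme ratios were single positions with reads in 1 of the control libraries. The 12 largest log2 ratios each way, from 5.82 to 9.83 higher and from −8.07 to −4.27 lower, came from loci with 0 reads in the other library and at most 2 positions. The most extreme was chr19:32925565 (plus), a position with 0, 12211, 0 and 0 reads in the 4 libraries. Its locus was at least 4787-fold higher with control siRNA, taking 3 reads in the no siRNA library as the floor, and only 2 more reads lay within 100 nt. The position chr7:143976479 (minus) had 0, 5113, 0 and 0 reads. In the reverse direction, chr4:56875346 (minus) had 4228, 0, 0 and 0 reads, with no other read of the control libraries within 100 nt. These lone positions had few or no neighbouring 3′ ends, where sites of at least 200 reads had a median of 11 positions.

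Among the loci with at least 50 reads over both libraries, 154 had reads with control siRNA and 0 without siRNA, and 92 had the reverse. Of these, 149 and 90 consisted of 1 position. Single positions with at least 100 reads in 1 control library and 0 in the other numbered 103 with control siRNA and 48 without siRNA, and held 0.424% and 0.126% of the reads of their libraries. Of these 151 positions, 146 also had 0 reads in both depleted libraries. The depleted libraries had lone positions of their own, 59 that only the CstF-64 siRNA library held and 113 that only the CF Im 68 siRNA library held. The matching counts over all 4 libraries were 47 for no siRNA and 99 for control siRNA. The libraries differ in depth, so these counts are not on the same scale. On chromosomes 1 to 22 and X, 149 of the 16825 positions with at least 100 reads in a control library (0.886%) had 0 reads in the other.

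A count of 0 could also stand for a position removed before deposit. The deposited positions carry running numbers in coordinate order, of which 12.2% without siRNA and 10.8% with control siRNA are skipped, by a rule the labels do not give. Of 102 control siRNA positions with neighbours on both sides in the no siRNA library, 59 had no number skipped between those neighbours. For the 48 positions of the reverse kind this count was 35. The positions chr7:143976479 and chr4:56875346 were among these. A removal before the numbering would leave no gap, so removal as the source of a 0 was not tested for these positions. At chr19:32925565 there were 2 numbers skipped in the no siRNA library between neighbours 23539 nt apart, so a removed count cannot be told apart from a true 0 there.

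**Figure D1:**
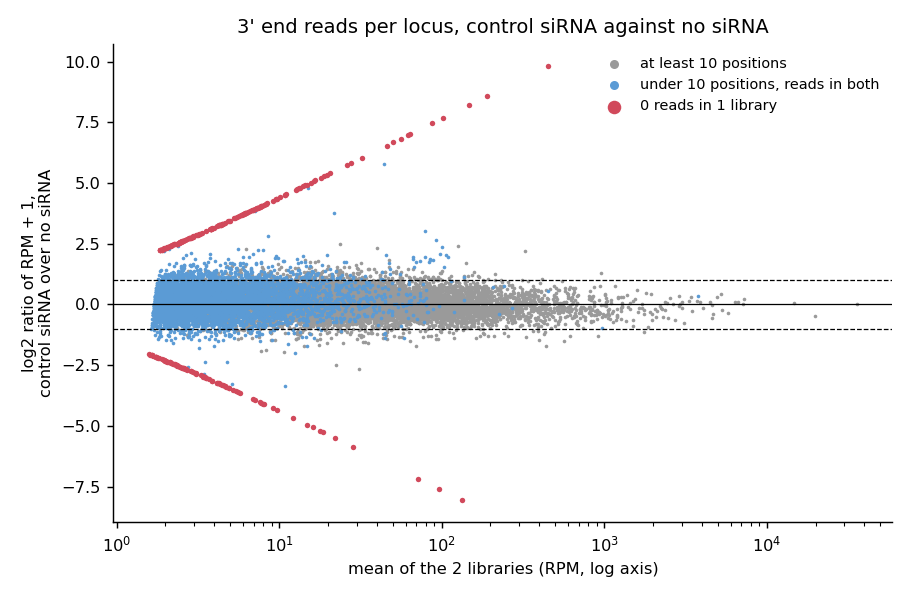
Log2 ratio of control siRNA over no siRNA (RPM + 1) against the mean of both libraries (RPM, log axis), 1 point per locus in 14987 loci, with dashed lines at 2-fold. The 154 and 92 loci with 0 reads in 1 library lie on 2 rays outside the main cloud.

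Loci with at least 10 positions over both libraries were therefore considered separately, a limit chosen after the values were seen. Of 9636 such loci, 275 (2.85%) were at least 2-fold higher and 137 (1.42%) at least 2-fold lower with control siRNA. The larger number of higher loci depended on the scaling: of the loci called, 66.7% were higher by total reads and 44.96% with TMM factors, which gave 224 lower loci. The median log2 ratio of these loci was 0.06 by total reads and −0.05 with TMM. Differences were mostly close to the limit, with a median log2 ratio of 1.17 in the higher and −1.20 in the lower loci, and 5 and 2 loci beyond 4-fold. Without the most used position of each locus, 134 of the 275 and 79 of the 137 were still past 2-fold.

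The ratio depended on abundance. In loci with at least 10 positions, its median log2 was 0.05 under 3 RPM (95% order-statistic interval −0.05 to 0.15), 0.12 at 3 to 10 RPM, 0.13 at 10 to 30 RPM, 0.04 at 30 to 100 RPM, −0.05 at 100 to 300 RPM and −0.13 at 300 to 1000 RPM. Above 1000 RPM it was −0.14 over 100 loci (−0.21 to 0.02). Such intervals cover the spread over loci in this pair of libraries and not the variation between libraries. The median thus became smaller from 10 RPM upward, and the scarcest class lay below the next 2.

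Among loci with at least 10 positions, the highest ratio was at chr5:137804915 (plus). Its levels were 6.52 RPM without siRNA, 41.1 RPM with control siRNA, 16.2 RPM with CstF-64 siRNA and 32.7 RPM with CF Im 68 siRNA. The fold of control siRNA over no siRNA was 6.30 (95% exact interval 5.10 to 7.85), over 15 and 26 positions. All 3 siRNA libraries were above the no siRNA library.

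A pair of neighbouring loci on the plus strand of chromosome 6, with main ends 12314 nt apart, was higher together. The levels at chr6:31785718 were 39.2, 215, 134 and 166 RPM, with a fold of 5.48 (5.02 to 5.99) for control siRNA over no siRNA. A single position held 81.1% of the control siRNA reads there. The levels at chr6:31798032 were 114, 534, 382 and 381 RPM, a fold of 4.67 (4.44 to 4.92). The no siRNA library was the lowest of the 4 at both loci. The handling of reads with several matches is not among the labels, so reads shared between similar neighbours cannot be told apart.

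At chr19:2037470 (minus) the levels were 20.4, 74.0, 83.9 and 65.4 RPM, a fold of 3.63 (3.20 to 4.13) for the control pair. At chr17:42430471 (plus) they were 65.7 RPM without siRNA, 217 RPM with control siRNA and 226 RPM with CstF-64 siRNA. At chr12:114259863 (minus) they were 5.82, 22.9, 22.6 and 35.0 RPM. At these loci the no siRNA library was the lowest of the values given. The locus chr19:5591283 (minus) also entered the list, with 12.7 RPM without siRNA and 67.5 RPM with control siRNA. One position with 0 reads without siRNA made up 54.6% of its control siRNA reads, and without it the log2 ratio was 1.21 in place of 2.33.

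Among the loci lower with control siRNA, chr5:81550609 (plus) had 54.5, 7.81, 20.6 and 23.6 RPM. It was 6.97-fold higher without siRNA than with control siRNA (5.69 to 8.62). The most abundant locus of this list, chr2:55462745 (plus), had 677, 204, 185 and 192 RPM and was 3.31-fold higher without siRNA (3.17 to 3.45). The 3 siRNA libraries were within 20 RPM of each other there. The locus chr10:127395807 (minus) had 22.5 RPM without siRNA and 6.10, 5.72 and 5.78 RPM in the siRNA libraries, a fold of 3.69 (2.90 to 4.75).

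Other loci of this list were low with control siRNA and near the untreated level in a depleted library. The levels at chr4:25280714 (plus) were 17.7, 3.87, 15.4 and 18.0 RPM. The levels at chr16:61089307 (minus) were 13.7, 2.98, 4.22 and 14.3 RPM. At both, the CF Im 68 siRNA library was slightly above the no siRNA library. At chr11:6504288 (plus), with 37.5, 11.9, 10.3 and 29.1 RPM, 1 position held 81.9% of the reads without siRNA, and the log2 ratio went from −1.58 to −0.36 without it.

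**Figure D2:**
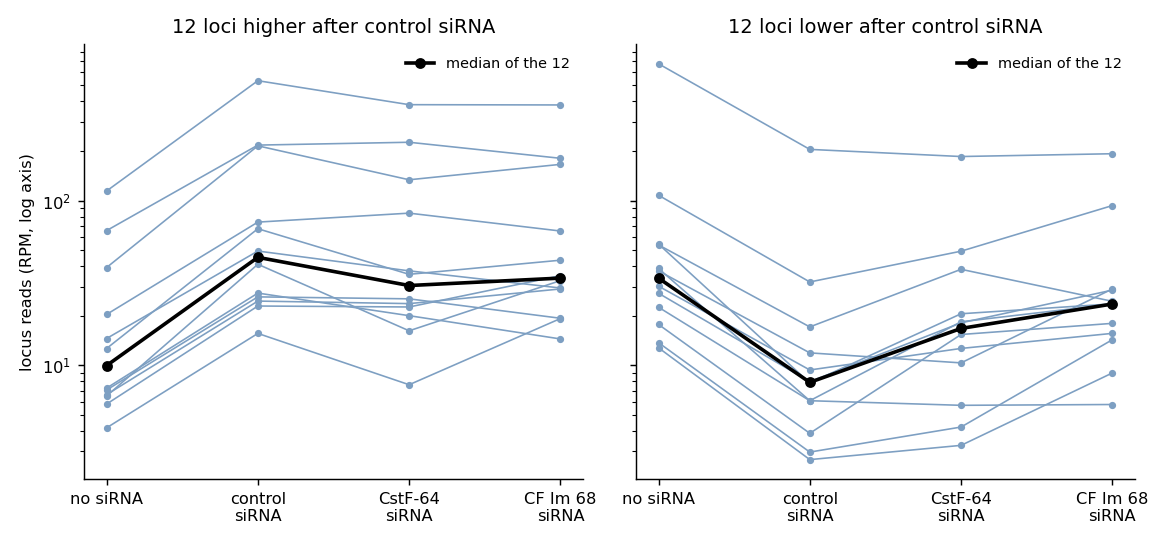
Locus reads (RPM, log axis) in each library for the 12 loci with the highest and the 12 with the lowest ratio of control siRNA over no siRNA, among loci with at least 10 positions and 200 reads; each thin line joins the values of 1 locus and the black line joins their medians. Loci were chosen on the first 2 libraries, so only the values with CstF-64 and CF Im 68 siRNA are independent of the choice.

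The values of the depleted libraries played no part in the choice of these loci. Over all 275 higher loci, the median level was 11.3 RPM without siRNA, 27.4 RPM with control siRNA, 25.2 RPM with CstF-64 siRNA and 27.8 RPM with CF Im 68 siRNA. Over the 137 lower loci the medians were 42.1, 16.2, 13.9 and 18.4 RPM. On the log scale the CstF-64 siRNA level was nearer to control siRNA than to no siRNA at 199 of the higher loci (72.4%) and 115 of the lower ones (83.9%). For CF Im 68 siRNA the counts were 241 (87.6%) and 94 (68.6%). These levels were scaled by total reads only. The same shares over all 9636 loci were not computed, so the counts cannot be read as particular to the called loci.

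Of the 275 higher loci 26 had another such locus within 100 kb, and of the 137 lower loci 2 did. The number expected for sets of these sizes among all 9636 loci was not computed. The counts therefore cannot be compared between the sets, and clustering was not tested.

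The use of proximal and distal sites was compared in 5756 loci with at least 50 reads at the 2 most used sites in each control library. These sites were a median of 1097 nt apart, with quartiles of 285 and 2813 nt. The proximal share, the percentage of the pair's reads at the more 5′ site, had a median of 47.7% without siRNA (quartiles 23 and 72.5%) and 47.3% with control siRNA. The test was Fisher's exact test on the reads (two-sided, Benjamini-Hochberg adjusted over the 5756 loci), which compares these libraries and not the conditions. At an adjusted p below 0.05 and a difference of at least 10 percentage points, 629 loci (10.9%) were more proximal and 628 (10.9%) more distal with control siRNA. The median difference was 0.27 points (order-statistic interval 0.04 to 0.52), and the median absolute difference 5.76 points. That interval covers the spread over loci in this pair of libraries and not the variation between libraries, so a shift of the condition was not tested. The site with more reads was another in the 2 libraries at 582 loci (10.1%), of which 353 were called.

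Calls occurred at all distances between the sites. Between 201 and 500 nt, 64 loci were more proximal and 97 more distal with control siRNA. Between 1001 and 2000 nt the counts were 135 and 101, and between 2001 and 5000 nt they were 154 and 127. The median difference was −0.39 points (−0.98 to 0.45) at 201 to 500 nt and 0.73 points (0.14 to 1.29) at 2001 to 5000 nt. Whether these distance classes differ was not tested. Calls were made at 27.8% of loci with 3 or more sites and at 17.6% of loci with 2 sites.

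In called loci the reads of both sites differed. The more proximal loci had a median of 6.58 RPM without siRNA and 11.0 RPM with control siRNA at the proximal site, and 10.9 and 7.96 RPM at the distal site. The more distal loci had 10.1 and 8.07 RPM at the proximal site and 7.02 and 11.5 RPM at the distal site. The call rests on these reads, so they are a description only.

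**Figure D3:**
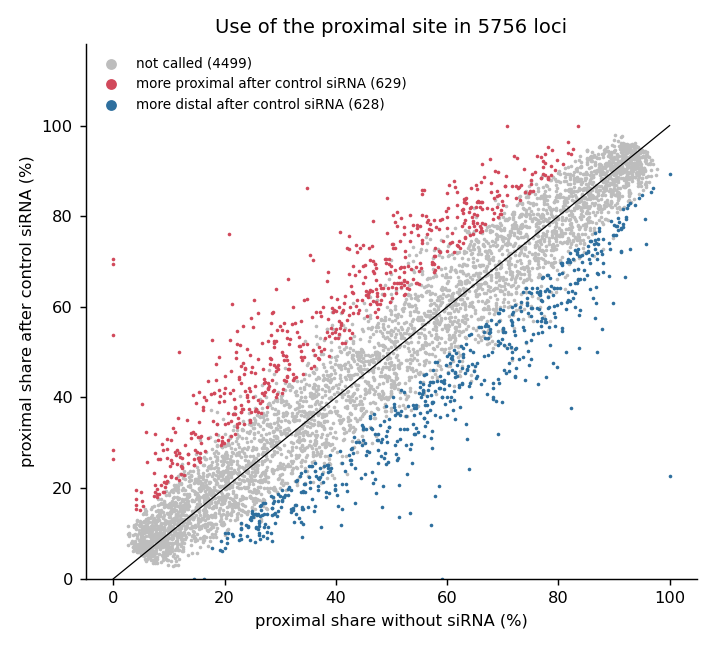
Proximal share with control siRNA against that without siRNA (both in %), 1 point per locus in 5756 loci; the line marks equal shares. The 629 loci called more proximal and the 628 called more distal lie above and below the line in like numbers.

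Several of the largest differences in share involved sites with few positions. The 12 largest toward the proximal site covered 34.9 to 70.6 points, and in 6 of these pairs a site had only 1 or 2 positions. Toward the distal site the 12 largest ran from −77.4 to −33.2 points, with 3 such pairs. Not all of these sites were absent from a library. The proximal site at chr11:74465503 (minus), of 1 position, had 23, 56, 45 and 67 reads. At chr19:5591283 and 5587076 (minus), the proximal share was 0% of 135 reads without siRNA, 70.6% of 701 reads with control siRNA, and 0% with either depletion. The proximal site there was the single position already described. At chr22:45133562 and 45137600 (plus), the share was 100% without siRNA, 22.6% with control siRNA and 100% in both depleted libraries, and the distal site was 1 position.

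Pairs with at least 5 positions at each site and 200 reads in each control library differed by up to 38.9 points, a limit that was also chosen after the values were seen. At chr13:48650715 and 48650096 (minus), the proximal share was 46.6% without siRNA (exact interval 42.6 to 50.7, 594 reads) and 79.0% with control siRNA (75.4 to 82.2, 580 reads). With the CstF-64 and CF Im 68 siRNAs it was 88.0% and 81.0%. The adjusted Fisher's exact p of the control pair was 6.01e-29. The no siRNA library was the low one of the 4.

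At chr1:225682519 and 225680529 (minus), the shares were 23.3%, 55.8%, 52.6% and 57.9%. At chr17:74308874 and 74307014 (minus), they were 24.7%, 57.6%, 75.6% and 73.3%. The no siRNA library was again the low one in each pair. Without the most used position of each site, the difference of the control libraries at the chromosome 17 pair was 16.2 points in place of 32.9. At chr5:134259911 and 134260289 (plus), the shares were 11.8%, 50%, 34.9% and 18.1%, so that control siRNA was the high one and CF Im 68 siRNA was nearer to no siRNA.

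Toward the distal site, the pair chr7:6501378 and 6500722 (minus) had a proximal share of 79.0% without siRNA (76.4 to 81.5, 1020 reads) and 47.7% with control siRNA (44.7 to 50.6, 1150 reads). With the depletions it was 57.6% and 51.8%, and the adjusted Fisher's exact p of the control pair was 2.21e-50. The pair chr12:57924094 and 57923937 (minus) had 76.2%, 43.0%, 29.7% and 36.6%. In both pairs the no siRNA library had the highest share.

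Some of these differences became smaller or changed sign without the most used position of each site, which can leave few reads to compare. The pair chr19:18977427 and 18979039 (plus) had 53.4%, 14.5%, 12.6% and 26.7%. Its difference between the control libraries was −38.9 points, and −9.81 points without the most used position of each site. There these positions held 97.0% (no siRNA) and 91.5% (control siRNA) of the proximal reads, and 88.9% and 91.1% of the distal reads. The pair chr1:27653023 and 27662891 (plus) had 63.4% without siRNA and 34.2% with control siRNA. Without the most used positions its difference was 1.05 points, of opposite sign. The most used distal position held 96.7% of the distal reads without siRNA and 99.4% with control siRNA, so few distal reads were left. The pair chr17:1398903 and 1397870 (minus) went from −37.2 to −13.1 points. The pair chr6:36892332 and 36896739 (plus) went from −30.7 to −5.00 points. Its shares were 51.4%, 20.7%, 39.4% and 48.8%, so that both depleted libraries were nearer to no siRNA. The chromosome 7 and 12 pairs kept −21.2 and −25.0 points without these positions.

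Over the called pairs with at least 20 reads in every library, the CstF-64 siRNA shares lay mostly nearer to control siRNA, and CF Im 68 siRNA shares did so mainly in the more proximal pairs. In 616 more proximal pairs the median shares were 40.6%, 59.2%, 62.7% and 63.9%. In 606 more distal pairs they were 59.7%, 42.0%, 41.8% and 50.5%. The share with CstF-64 siRNA was nearer to control siRNA than to no siRNA at 494 of the 616 pairs (80.2%) and 469 of the 606 (77.4%). For CF Im 68 siRNA the counts were 514 (83.4%) and 306 (50.5%). The same shares over all tested pairs were not computed, so whether the called pairs differ from the rest was not tested.

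All 4 libraries were also set side by side at equal total reads, thinned to 7343112 each. Reads at the compared loci were not equalised, and mitochondrial reads ranged from 1.17 to 3.75% of the libraries before thinning. In 4406 loci, the median absolute difference in proximal share was 5.20 points between no and control siRNA and 4.68 points between control and CstF-64 siRNA. Between control and CF Im 68 siRNA it was 7.0 points. With no siRNA as the reference in place of control siRNA, it was 7.31 points for CstF-64 siRNA and 9.09 points for CF Im 68 siRNA. Each depleted library was thus farther from no siRNA than from control siRNA. The same held for totals in 12211 loci: 21.2% differed by 2-fold between no and CstF-64 siRNA and 12.4% between control and CstF-64 siRNA. For CF Im 68 siRNA these shares were 19.8% and 9.59%, and 7.41% differed between no and control siRNA. These values share libraries and carry no test.

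Differences between the control libraries are given beside the counting error by depth. With counting error alone, a median absolute difference would lie somewhat below the standard error. The standard error of the log2 ratio leaves out the pseudocount of 1 RPM, which shrinks the ratios of scarce loci. Under 3 RPM these measures are therefore not on the same scale. In loci with at least 10 positions and under 3 RPM, the median absolute log2 ratio was 0.35 and the median standard error from counting 0.35. From 100 to 300 RPM the values were 0.32 and 0.04, and above 1000 RPM they were 0.27 and 0.01. Pairs with 50 to 99 reads in the smaller library had a median absolute difference in share of 8.46 points and a counting error of 7.21 points. From 1000 to 1999 reads the values were 4.02 and 1.38 points, and from 5000 reads upward 3.42 and 0.53 points. Above 1000 reads the difference in share thus changed little while the counting error went on falling.

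**Figure D4:**
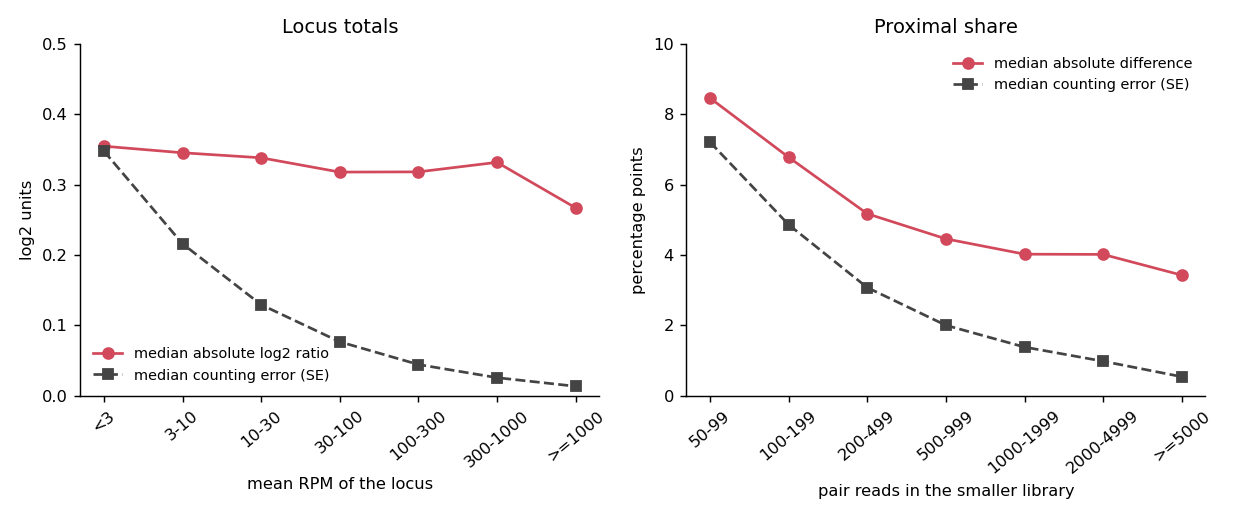
Median absolute difference between control and no siRNA (red) and median standard error from counting (dashed), for log2 ratios of loci with at least 10 positions by mean RPM (left) and for the proximal share in percentage points by pair reads (right). The counting error ends at 0.01 log2 units and 0.53 points, and the differences at 0.27 log2 units and 3.42 points.

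The cleavage position within sites was compared at 6737 sites with at least 200 reads in both libraries. The most used position was the same nucleotide at 6288 sites (93.3%). It held a median of 66.7% of the site's reads without siRNA and 66.3% with control siRNA. The read-weighted mean position differed by a median of 0.16 nt in absolute value, and by at least 1 nt at 482 sites (7.15%). It lay at least 3 nt further upstream with control siRNA at 17 sites (0.252%) and at least 3 nt further downstream at 14 sites (0.208%). No site was called when positions were joined within 10 nt. Ends farther than 10 nt from the most used one then fell in other sites, and narrower sites leave less room for a shift of 3 nt.

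The named sites of this kind held alternative 3′ ends 6 to 25 nt apart whose weights differed. At a site on the plus strand of chromosome 7, the end at 75695908 had 36.8%, 52.0%, 67.0% and 54.3% of the reads, and the end at 75695929, 21 nt downstream, had 52.2%, 32.4%, 17.8% and 30.3%. The site had 6824 reads without siRNA and 5525 with control siRNA. The downstream end was the most used one without siRNA, and the upstream end in the 3 siRNA libraries.

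On the plus strand of chromosome 9, the end at 136218281 had 43.8%, 67.5%, 78.4% and 65.6% of the reads of its site, with 8638 reads without siRNA and 7580 with control siRNA. Most other reads lay upstream, with a mean offset of −6.82 nt without siRNA and −2.39 nt with control siRNA. At chr7:56078761 (minus) the main end had 42.2%, 68.9%, 69.5% and 63.2%. The no siRNA library was the low one at both sites. At chr9:114432505 (plus) the main end had 74.1%, 54.8%, 6.21% and 42.0%, and the no siRNA library was the high one.

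At the 17 sites called upstream, the median offset from the main end was 9.68, 6.20, 3.96 and 5.13 nt. At the 14 called downstream it was −4.54, −0.74, 1.53 and −0.34 nt. The CstF-64 siRNA offset was nearer to control siRNA than to no siRNA at 16 of the 17 and 14 of the 14 sites. The CF Im 68 siRNA offset was nearer to control siRNA at 16 and 12. The same shares over all tested sites were not computed, so whether the called sites differ from the rest was not tested.

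**Figure D5:**
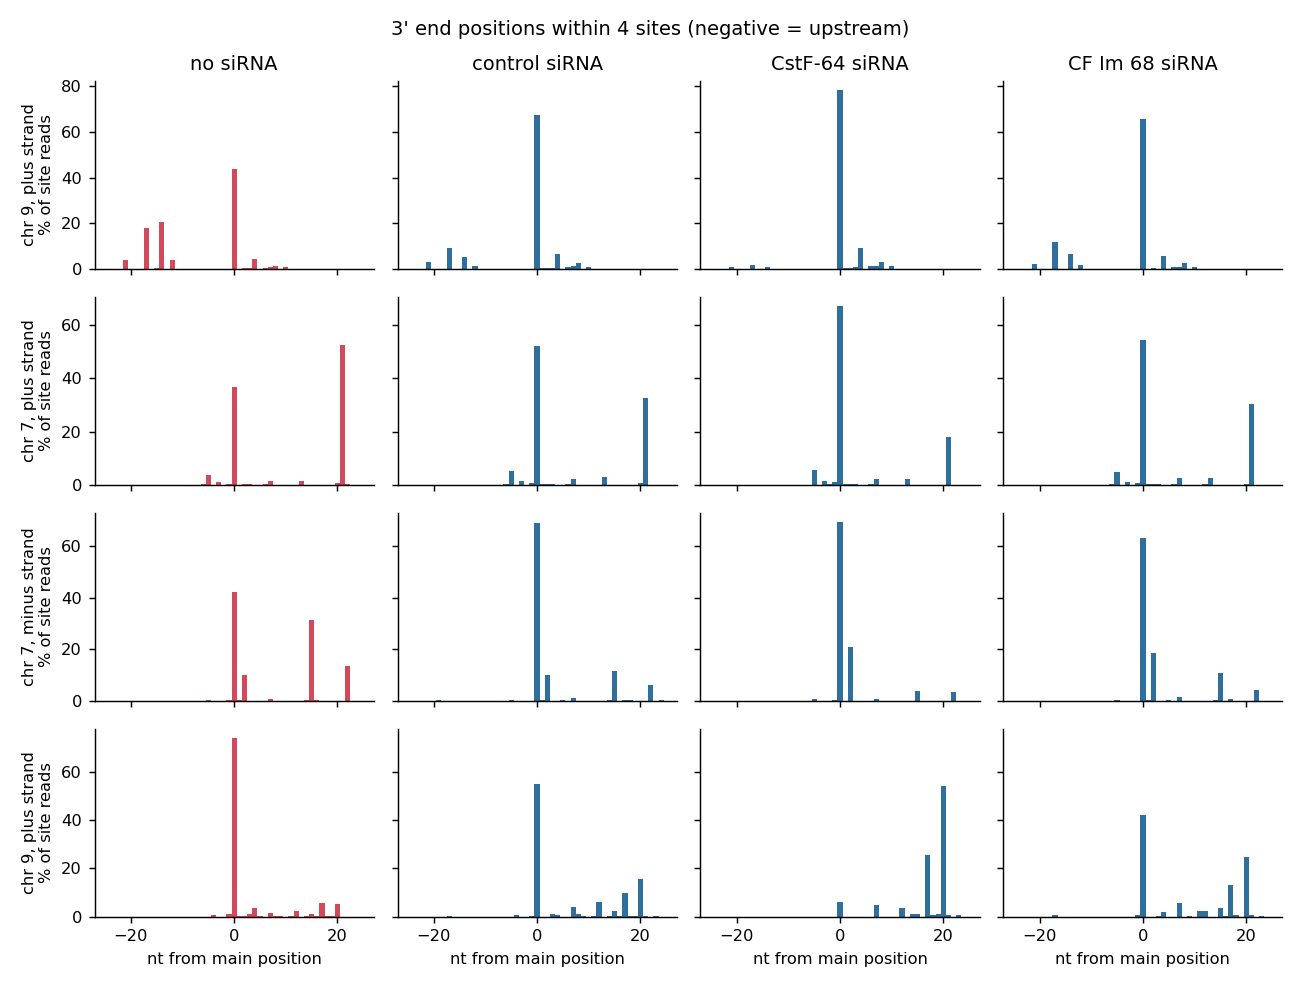
Share of the site's reads (%) at each 3′ end against its distance from the main end (nt, negative is upstream) in the 4 libraries, for the 4 named sites with the most reads without siRNA. In the upper 3 rows the main end holds less of the reads without siRNA (36.8 to 43.8%) than with control siRNA (52.0 to 68.9%), and in the lowest row more (74.1 against 54.8%).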

How the data were processed

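A-seq 3′ ends of HEK293 cells were compared between control siRNA and no siRNA, 1 library each. The authors deposited whole read counts per nucleotide and strand, with no scaling. Per the submitters' processing notes the build was hg19 (GRCh37). The aligner, filters and treatment of PCR copies were not stated in the labels, which name no molecular identifiers, so intervals (exact, 95%) cover counting error only. Order-statistic intervals of medians (95%) treat loci as independent and do not cover the variation between libraries.

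Positions were joined to sites (25 nt) and sites to loci (10000 nt) on the 2 compared libraries alone, on chromosomes 1 to 22 and X. Locus totals were called at 2-fold (RPM plus 1, 50 reads), shares by Fisher's exact test (adjusted p below 0.05, 10 points, 50 reads), and cleavage at 3 nt (200 reads). The naming rule took the 12 most extreme called loci (200 reads) and 12 pairs each way, the 10 most abundant loci, 8 sites each way and 8 lone positions. Lists of loci with at least 10 positions (12 each way) and of pairs with at least 5 positions per site (6 each way) were added after the values were seen. The text prints part of each. Gene lists were not used, for want of an hg19 annotation here. The comparison and lists were chosen with earlier results of these data known. Alternatives covered scaling, pseudocount, widths, read minimums, thinning and the top position. The code was tested on simulated data. Software was Python 3.11.15 with scipy 1.17.1, and edgeR 4.0.16 and DESeq2 1.42.0 for scaling factors only.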

Additional observations from a re-analysis of the deposited data

How the results depend on the processing

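No paired analysis was possible because each group had 1 library. Nor could a library be left out. The main counts were 822 loci higher and 351 lower, 629 more proximal and 628 more distal, and 17 sites upstream and 14 downstream. Without the top position of each locus or site, which also leaves fewer reads to test, 260 loci were higher and 138 lower, and 230 more proximal and 239 more distal. A pseudocount of 0.1 RPM gave 1216 higher and 562 lower, and 5 RPM gave 311 higher and 150 lower. With at least 500 locus reads 215 were higher and 105 lower, and with at least 10 positions (chosen after seeing the data) 275 and 137. With TMM factors the calls were 650 and 470 and with DESeq2 size factors 641 and 477, so that 58.0% and 57.3% were higher, against 70.1% by total reads. At least 200 pair reads left 357 proximal and 365 distal calls. Cleavage calls were 0 and 0 with sites within 10 nt, 54 upstream and 49 downstream within 50 nt, and 2 and 2 with 1000 site reads. Sites of at least 3 RPM numbered 18264, with 3623 loci of at least 2 sites, against 32605 and 6306. The other counts stayed within 1.5 times under every alternative tried for them, among them sites from all 4 libraries, the other site and locus widths, and thinning. Of the named loci, 4 values changed sign. The cleavage shift was 0.0047 nt at 75695908 on chromosome 7 and −0.0044 nt at 136218281 on chromosome 9 with sites within 10 nt. The log2 ratio was 0.16 for 154251232 on chromosome 1 with loci within 20 kb, which joined it to other sites. The pair at 27653023 and 27662891 on chromosome 1 had a difference of 1.05 points without the top positions. For the sign changes with other widths, the joining itself sets which reads are compared. For the pair, few distal reads were left without the top positions, and the cause was not tested.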
